A study of Mus musculus with 3 samples.

Results

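The genes of the respiratory chain and the ATP synthase were examined in macrophages grown from mouse bone marrow and given adiponectin, a hormone secreted by fat cells. They were the genes whose array probes carried an accession mapped to a symbol beginning with Nduf, Uqcr, Cox4, Cox5, Cox6, Cox7, Cox8 or Atp5, or to Sdha, Sdhb, Sdhc, Sdhd, Cyc1 or Cycs. This rule found 128 probes for 95 genes, out of 55681 probes and 20660 named genes on the arrays. Of the 95 genes, 91 were measured, against 13182 measured genes in all. The other 4, Cox7b2, Cox8b, Cox8c and Ndufa4l2, are tissue-restricted or condition-restricted forms of complex IV subunits, and their probes were well above background in fewer than 3 of the 6 channel readings. No probe was mapped to the subunits encoded by mitochondrial DNA, which were not analysed here.

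Macrophages were grown from the marrow of C57BL/6J mice in medium holding 30% L929 cell supernatant, which supplies the growth factor CSF-1. They were then kept in 0.1% serum and either given adiponectin at 12 µg/ml for 18 h or left untreated. Each of 3 dual-colour arrays held 1 treated and 1 untreated RNA sample, with the treated RNA labelled with Cy5 on replicate 2 and with Cy3 on the others. The labels call these biological replicates and do not say whether they came from separate mice. The p-values therefore rest on the spread between these 3 pairs of samples, moderated towards a spread estimated over all tested genes.

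The respiratory chain passes electrons from NADH (complex I) and succinate (complex II) through ubiquinone to complex III, then through cytochrome c to complex IV, where oxygen is reduced. Complexes I, III and IV pump protons across the inner mitochondrial membrane, and the ATP synthase (complex V) uses their return to make ATP. In macrophages, the balance between respiration and glycolysis is known to shift with activation, and complex I and complex II are known sources of mitochondrial signals in inflammatory responses.

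The promoters of 4 members are shown because these genes had the most positive mean log2 ratios among all members (Cycs and Ndufs4) and the most negative (Ndufaf7 and Sdha). Each is the RefSeq sequence of GRCm38.p6 running from 250 bases before to 50 bases after the annotated start, on the strand of the gene. Capitals mark exact matches to 4 motifs known from nuclear genes of respiration, searched on both strands: NRF1 (GCGCATGC), GABPA (CCGGAAG), YY1 (AAGATGGC) and ESRRA (TCAAGGTCA). The Cycs window, at chr6:50566520-50566819 on the minus strand, held 1 NRF1 match in reverse orientation, and the Ndufs4 window, at chr13:114388045-114388344 on the minus strand, held 1 YY1 match. The windows of Ndufaf7, at chr17:78936885-78937184 on the plus strand, and of Sdha, at chr13:74350191-74350490 on the minus strand, held none, which says only that these letters are not in these 300 bases.
Cycs: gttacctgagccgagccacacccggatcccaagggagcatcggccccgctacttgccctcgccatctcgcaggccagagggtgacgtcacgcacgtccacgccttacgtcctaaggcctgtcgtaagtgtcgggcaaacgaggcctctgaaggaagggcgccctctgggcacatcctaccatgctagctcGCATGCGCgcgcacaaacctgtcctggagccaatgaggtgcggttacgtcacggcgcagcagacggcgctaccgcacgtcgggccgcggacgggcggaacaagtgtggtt
Ndufs4: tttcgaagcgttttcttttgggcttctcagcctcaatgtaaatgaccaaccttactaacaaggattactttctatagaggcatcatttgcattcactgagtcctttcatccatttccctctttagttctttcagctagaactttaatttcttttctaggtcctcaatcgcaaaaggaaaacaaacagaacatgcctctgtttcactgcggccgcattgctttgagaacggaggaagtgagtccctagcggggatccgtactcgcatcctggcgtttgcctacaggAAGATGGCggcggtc
Ndufaf7: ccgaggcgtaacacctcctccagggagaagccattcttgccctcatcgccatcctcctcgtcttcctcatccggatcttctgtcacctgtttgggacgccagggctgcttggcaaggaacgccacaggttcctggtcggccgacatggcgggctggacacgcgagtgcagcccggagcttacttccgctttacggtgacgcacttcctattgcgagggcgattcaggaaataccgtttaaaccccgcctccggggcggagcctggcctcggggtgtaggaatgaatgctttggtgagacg
Sdha: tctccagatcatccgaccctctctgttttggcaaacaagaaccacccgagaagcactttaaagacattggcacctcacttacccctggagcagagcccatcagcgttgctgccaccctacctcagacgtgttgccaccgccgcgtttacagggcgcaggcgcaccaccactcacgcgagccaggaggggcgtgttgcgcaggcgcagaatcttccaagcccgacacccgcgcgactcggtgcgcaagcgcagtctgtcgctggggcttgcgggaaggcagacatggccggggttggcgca

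Promoters were listed for 77 of the 95 members, 82 windows in all. The NRF1 letters lay in 13 of the 82 windows (15.9%), against 2.71% of the 32851 windows of all genes. The shares were 23.2% of member windows and 8.86% of all windows for GABPA, 13.4% and 2.75% for YY1, and 2.44% and 0.423% for ESRRA. NRF1 matches lay in 3 of 13 windows of members called higher in treated cells, in 7 of 41 of those called lower and in 3 of 26 of those not called. GABPA matches lay in 5, 7 and 7 windows of these same sets. YY1 matches lay in 1, 8 and 2 of them, and in 8 of the 41 complex I windows and 0 of the 14 complex IV windows. ESRRA matches lay in 0, 2 and 0 of the same sets, and the differences between the sets were not tested. These matches are descriptions of the sequence and not evidence of binding.

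Few probes were lost to background among the members: all 91 measured members were well above background in all 6 channel readings. Over all probes, 43.9% to 47.5% were well above background in the treated channel and 53.4% to 54.3% in the untreated channel. The 11 macrophage markers measured were all well above background, with a summed normalized intensity of 303000 to 361000 in treated cells and 530000 to 550000 in untreated cells, and 7 of them were called lower and 3 higher. The 8 fibroblast markers summed to 850 to 923 in treated and 790 to 836 in untreated samples, with Pdgfra and Lum never above background, and the 7 neutrophil markers to 3330 to 3800 in treated and 2930 to 3520 in untreated samples. The 5 dendritic cell markers summed to 43900 to 49200 in treated and 35200 to 41500 in untreated samples, with Xcr1 and Cd209a never above background. Sums for the 5 T cell markers were 2410 to 2660 in treated and 2140 to 2420 in untreated samples, with Cd3d, Cd3g and Cd8a never above background. The 5 mast cell markers summed to 373 to 427 in treated and 496 to 526 in untreated samples, with Cpa3, Mcpt8 and Fcer1a never above background. B cell markers were also listed, and their sums are not reported here. The 5 erythroid markers stayed at 316 to 325 in treated and 318 to 327 in untreated samples, 4 of them never above background. The part of these differences in the results that follow was not tested, and in whole-culture RNA fewer cells of a type cannot be told apart from less RNA per cell.

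Under loess normalization, most respiratory chain and ATP synthase genes were lower in adiponectin-treated macrophages, but about as often as genes in general. In limma, with Benjamini-Hochberg adjustment over all tested genes, 46 of the 91 members (50.5%) were called lower and 15 (16.5%) higher at an adjusted p under 0.05, where 46.1% of all tested genes were called lower and 24.5% higher. The share called lower was thus near the background. Changes of 2-fold or more were found in 2 members, Ndufaf7 and Sdha, both lower, and in 0 members in the other direction. Over all tested genes, 12.6% were called lower and 6.8% higher by 2-fold or more. The median log2 ratio of the members was -0.25 (quartiles -0.46 and 0.02), and that of all tested genes was -0.17 (quartiles -0.64 and 0.22).

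The shift of all genes depended on the scaling. With the ratios centred on the median of the tested genes, 22 of the 91 members were called higher and 32 lower. Most members were thus not called lower under this scaling. Of all tested genes, 35.2% were then higher and 36.7% lower (4640 and 4836 of 13182). With each array centred on its median over all probes, in place of loess, the median of all tested genes moved to -1.03, that of the members to -1.33, and all 91 members lay below 0. With that centring no gene passed the adjusted threshold in limma, although 5315 genes, 20 members among them, had an unadjusted p under 0.05. Every member described here as higher is therefore higher under loess but below 0 with median centring, and all 15 lay above the median of all tested genes under both scalings. All 46 members called lower lay below that median under both.

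**Figure D1:**
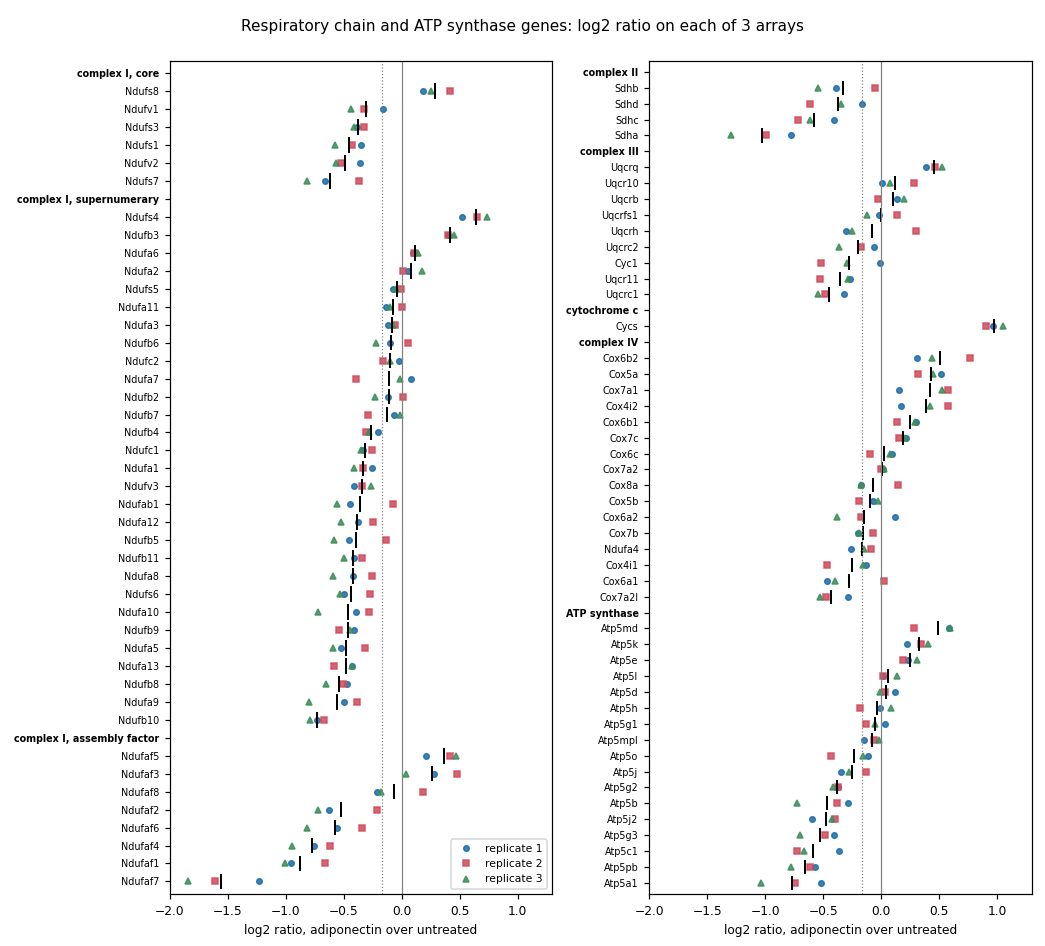
Log2 ratio of adiponectin-treated over untreated cells for the measured members reported here, by complex; points are the 3 arrays, black ticks their mean, the solid line is 0 and the dotted line the median of all tested genes (-0.17). Complex I and II genes lie mostly left of the dotted line, whereas Cycs and several complex IV genes lie right of 0 on every array (with loess; all members lie below 0 with median centring).

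The arrays ranked the members alike. Across members the log2 ratios of replicates 1 and 3 correlated at r = 0.94 (Spearman rho 0.92), those of replicates 2 and 3 at r = 0.87 (rho 0.82) and those of replicates 1 and 2 at r = 0.81 (rho 0.74), over 91 genes that share the same arrays and are not independent. Replicate 2, the array of opposite dye orientation, had the other sign in 11 members. With a dye term in the limma fit, its coefficient passed the threshold in 0 members and in 44 tested genes. The log2 ratio was below 0 in 64, 62 and 67 of the 91 members on replicates 1, 2 and 3 (70.3%, 68.1% and 73.6%), and in 61.0%, 59.1% and 62.8% of all tested genes.

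The complexes differed in how many members were called. Complex I had 28 of 44 members lower (63.6%) and 5 higher, complex II 4 of 4 lower, and the ATP synthase 8 of 17 lower (47.1%) and 3 higher. Complex III had 3 of 9 lower and 1 higher. Complex IV had 3 of 16 lower (18.8%) and 5 higher (31.2%), the 5 all below 0 with median centring. Beside the all-gene shares of 46.1% lower and 24.5% higher, complex I had a larger share lower and complex IV a smaller one, and no test of the difference between complexes was made. With the ratios centred on the tested genes, the members called lower and higher were 21 and 7 in complex I and 2 and 0 in complex II. They were 1 and 3 in complex III, 1 and 6 in complex IV and 7 and 5 in the ATP synthase. The shares of all tested genes were then 36.7% lower and 35.2% higher.

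**Figure D2:**
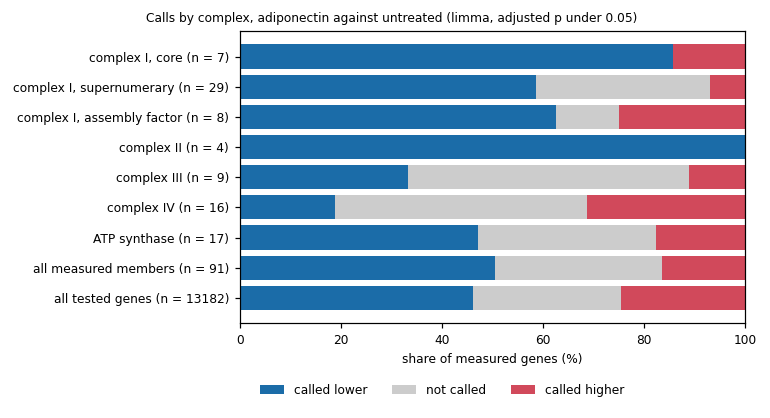
Share of measured genes called lower (blue), not called (grey) and called higher (red) in adiponectin-treated against untreated cells, for each group of members and, in the lowest bar, for all 13182 tested genes. The lower share is 85.7% for the complex I core and 18.8% for complex IV, against 46.1% of all tested genes; with median centring no gene is called.

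Complex I, the entry point for electrons from NADH, consists of a catalytic core and many supernumerary subunits. Of its 7 measured core genes, 6 fell and 1 rose, with a median log2 ratio of -0.45. This was 85.7% lower and 14.3% higher, beside 46.1% and 24.5% of all tested genes. Ndufs7, which carries the last iron-sulfur cluster before ubiquinone, had log2 intensities of 13.32, 13.42 and 13.06 in treated cells on replicates 1, 2 and 3, against 13.98, 13.78 and 13.88 in untreated cells. The treated value was the lower on every array and the groups did not overlap. Ndufs7 fell by 0.61 on the log2 scale (SE 0.10, adjusted p = 0.000712 in limma).

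The NADH-side subunits Ndufv2, Ndufs1 and Ndufv1 fell by 0.49, 0.45 and 0.31, and Ndufs3, another core subunit, fell by 0.37. The call of Ndufv1 was lost without replicate 3 and under 3 other settings. Ndufs8, another iron-sulfur subunit of the core, went the other way: it had 11.11, 11.25 and 11.23 in treated and 10.92, 10.83 and 10.98 in untreated cells, a log2 ratio of 0.29 (SE 0.09, adjusted p = 0.0163). The call did not hold without replicate 2 or without replicate 3.

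Among the 29 supernumerary genes of complex I, which stabilize the core, 17 fell, 2 rose and 10 did not pass the test, with a median of -0.33. This was 58.6% lower and 6.9% higher, beside 46.1% and 24.5% of all tested genes. Ndufb10, a subunit of the membrane arm, had 12.86, 13.05 and 12.86 in treated and 13.60, 13.73 and 13.66 in untreated cells. This was an even drop on the 3 arrays, by 0.73 (SE 0.08, adjusted p = 5.76e-05). Ndufa9, at the junction of the arms, Ndufb8 of the membrane arm and Ndufa13, also known as GRIM-19, fell by 0.56, 0.54 and 0.48.

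Ndufs4, a subunit whose loss in mice causes a Leigh-like disease, was the supernumerary gene with the highest ratio. It had 13.25, 13.29 and 13.40 in treated and 12.73, 12.64 and 12.67 in untreated cells, so every treated value exceeded every untreated one. Its log2 ratio was 0.64 (SE 0.09, adjusted p = 0.000182), 1.56-fold. Ndufb3, of the membrane arm, had 13.28, 13.28 and 13.40 in treated and 12.88, 12.89 and 12.94 in untreated cells, with a log2 ratio of 0.42 (SE 0.08, adjusted p = 0.00153). Ndufs4 and Ndufb3 thus moved against most of their complex, and both calls held under every setting other than median centring.

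The 8 measured Ndufaf genes encode factors that assemble complex I and do not remain in it. They held the widest range of ratios, with 5 lower (62.5%), 2 higher (25%) and a median of -0.55. The shares of all tested genes were 46.1% lower and 24.5% higher. Ndufaf7, known from human cells as a methyltransferase that acts during assembly, had 8.49, 8.21 and 8.07 in treated and 9.72, 9.82 and 9.91 in untreated cells. The groups were more than 1 log2 unit apart on every array. Ndufaf7 had a log2 ratio of -1.56 (SE 0.12, adjusted p = 6.60e-06), or 0.339-fold, the largest change among the members.

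Ndufaf1, part of the complex that assembles the membrane arm, had 8.82, 8.91 and 8.78 in treated and 9.78, 9.57 and 9.78 in untreated cells. It fell by 0.87 (SE 0.09, adjusted p = 5.20e-05). Ndufaf4 fell by 0.77, Ndufaf6 by 0.57 and Ndufaf2 by 0.52, with all treated values below those of untreated cells on the same array. Ndufaf5, known from human cells to hydroxylate the Ndufs7 protein, rose by 0.36 under loess (SE 0.09, adjusted p = 0.00570), by 0.67 without the normexp offset, and was at -0.30 with median centring. Ndufaf3 had a log2 ratio of 0.26 (adjusted p = 0.0422) on replicates at 0.28, 0.48 and 0.04. Its call was lost without replicate 1, without replicate 2 and with no filter on dim probes.

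Of 9 complex I assembly factors with other names, 8 fell and 1 rose under loess, with a median of -0.63. Among all tested genes 46.1% were lower and 24.5% higher. With the ratios centred on the tested genes, 7 factors were lower and 1 higher, beside 36.7% and 35.2% of all tested genes. Nubpl, which delivers iron-sulfur clusters to complex I, had log2 ratios of -1.01, -0.97 and -1.40. Tmem186, a factor of the membrane arm, had -0.77, -0.85 and -0.86, and a mean of -1.59 without the normexp offset. Timmdc1, a further membrane arm factor, was the exception at 0.41 (adjusted p = 0.00836), but 0.13 (adjusted p = 0.209) as a mean over its probes.

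Complex II, succinate dehydrogenase, also belongs to the citric acid cycle. All 4 of its subunits fell, beside 46.1% of all tested genes, with a median log2 ratio of -0.47. Sdha, the flavoprotein that oxidizes succinate, had 12.34, 12.15 and 11.92 in treated and 13.12, 13.14 and 13.21 in untreated cells. The untreated values were close together and the treated ones spread below them. Its log2 ratio was -1.02 (SE 0.11, adjusted p = 4.54e-05), or 0.492-fold.

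Sdhc, a membrane anchor, had 12.15, 12.01 and 11.88 in treated and 12.55, 12.73 and 12.49 in untreated cells, and fell by 0.58 (SE 0.09, adjusted p = 0.000514). The other anchor, Sdhd, had log2 ratios of -0.16, -0.61 and -0.34. The iron-sulfur subunit Sdhb had -0.39, -0.05 and -0.54. Sdhd and Sdhb were called at adjusted p = 0.0103 and 0.0233, and neither call held with the ratios centred on the tested genes. The call of Sdhb was also lost without replicate 1 (adjusted p = 0.107) and without replicate 3 (adjusted p = 0.161). Neither did it hold without the normexp offset or with the scanner ratio.

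The 4 factors that assemble complex II, whose roles are known mainly from yeast and human cells, split evenly under loess. Of them 2 fell and 2 rose, beside 46.1% and 24.5% of all tested genes. With the ratios centred on the tested genes, 2 were lower and 2 higher, beside 36.7% and 35.2% of all tested genes. Sdhaf4, which helps to mature Sdha, was at -1.38 (replicates -1.47, -1.05 and -1.63) and Sdhaf3 at -0.62, or -1.01 without the normexp offset. Sdhaf1, which helps to insert iron-sulfur clusters into Sdhb, had log2 ratios of 1.84, 1.98 and 1.94, a mean of 1.92 (SE 0.08, adjusted p = 3.36e-07), and 0.74 with median centring. Sdhaf2, which attaches the flavin to Sdha, was at 0.73 with loess and at -0.45 with median centring.

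**Figure D3:**
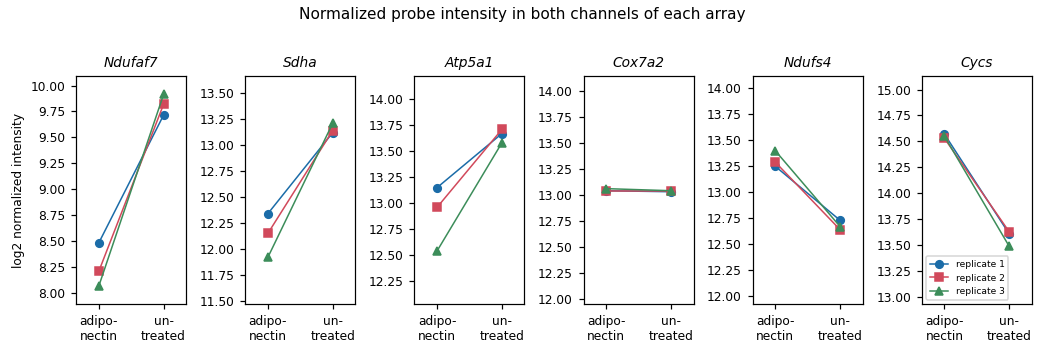
Log2 normalized intensity in adiponectin-treated (left) and untreated (right) cells on each of the 3 arrays, joined by array, for 6 members; each panel spans the same height of the log2 scale around its own centre, and levels of different probes are not comparable. Treated values lie below untreated ones for Ndufaf7, Sdha and Atp5a1, coincide for Cox7a2 and lie above them for Ndufs4 and Cycs; Ndufs4 and Cycs are below 0 with median centring, at -0.48 and -0.10.

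Complex III passes electrons from ubiquinol to cytochrome c. Of its 9 genes, 3 fell, 1 rose and 5 did not pass the test, with a median of -0.08. This was 33.3% lower and 11.1% higher, beside 46.1% and 24.5% of all tested genes. Uqcrc1, a core subunit, had 11.46, 11.36 and 11.19 in treated and 11.78, 11.85 and 11.74 in untreated cells, and fell by 0.45 (SE 0.09, adjusted p = 0.00149). Uqcr11 fell by 0.36, a call lost with the ratios centred on the tested genes.

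Cyc1, the cytochrome c1 of the complex, had log2 ratios of -0.01, -0.52 and -0.30. Its adjusted p was 0.0478, and 0.215 without replicate 2, and its call was lost under 8 of 13 settings other than median centring. Uqcrq, a small subunit, had 14.80, 14.79 and 14.92 in treated and 14.42, 14.32 and 14.40 in untreated cells. These groups did not overlap, and the log2 ratio was 0.46 (SE 0.08, adjusted p = 0.00103), at -0.60 with median centring. Of the other subunits, Uqcrc2 was at -0.20 and Uqcr10 at 0.12, and neither passed the test.

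Of the 6 measured complex III assembly genes, 3 fell and 1 rose under loess, beside 46.1% and 24.5% of all tested genes. With the ratios centred on the tested genes, 3 were lower and 3 higher, beside 36.7% and 35.2% of all tested genes. Bcs1l, which inserts the Rieske protein, was at -0.85 and Uqcc3 at -0.42. Ttc19 was at 1.01 on its brightest probe and at 0.36 as a mean over its probes.

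Cytochrome c, encoded by Cycs, is the mobile carrier between complexes III and IV and, released into the cytosol, triggers apoptosome assembly. It had 14.57, 14.53 and 14.55 in treated and 13.61, 13.63 and 13.49 in untreated cells. The values within each group lay close together and the groups did not overlap. Its log2 ratio was 0.97 (SE 0.08, adjusted p = 1.19e-05), 1.96-fold, the highest of the members. Relative to the median of all tested genes it lay between 0.77 and 1.19 over the alternatives, median centring included, although its own ratio there was -0.10.

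A second Cycs probe that was well above background in all readings had log2 ratios of 0.34, 0.12 and 0.25, a mean of 0.24. The third Cycs probe was never above background. As a mean over its probes Cycs was at 0.61 (adjusted p = 0.000141), so the direction was shared by the 2 measured probes under loess and the size was not.

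Complex IV is cytochrome c oxidase. Of its 16 measured genes 5 rose under loess (31.2%), 3 fell (18.8%) and 8 did not pass the test. The loess shares of all tested genes were 24.5% higher and 46.1% lower. With median centring all 16 were below 0. Cox5a, a subunit of every tissue, had 15.71, 15.40 and 15.57 in treated and 15.20, 15.08 and 15.12 in untreated cells. All treated values exceeded all untreated ones, with a log2 ratio of 0.43 (SE 0.08, adjusted p = 0.00180). Cox6b1, the common form of a subunit on the intermembrane side, was at 0.25 (adjusted p = 0.0265). Its call was lost without replicate 1, without replicate 3 and with the scanner ratio.

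The other 3 genes called higher in complex IV are isoforms known from particular tissues. Cox4i2, known from lung and from low oxygen, had 7.71, 7.99 and 7.89 in treated and 7.54, 7.42 and 7.47 in untreated cells. The mean log2 ratio was 0.39 (SE 0.10, adjusted p = 0.00677), and 0.68 without the normexp offset. Cox4i1, the common form, had log2 ratios of -0.13, -0.47 and -0.16, and its call at adjusted p = 0.0419 was lost when any 1 replicate was left out. That call was also lost under other settings, among them centring on the tested genes.

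Cox6b2, known from testis, had 7.48, 8.03 and 7.65 in treated and 7.17, 7.27 and 7.22 in untreated cells. The treated value was highest on replicate 2, the array with the opposite dye orientation. Its log2 ratio was 0.50 (SE 0.10, adjusted p = 0.00229), and 0.86 without the normexp offset. Cox7a1, known from heart and skeletal muscle, had 9.02, 9.38 and 9.42 in treated and 8.87, 8.80 and 8.90 in untreated cells, a log2 ratio of 0.42 (SE 0.10, adjusted p = 0.00616), and 0.64 without the offset. Cox4i2, Cox6b2 and Cox7a1 were each well above background in all 6 readings, but their probes were dim. Their mean log2 brightness was 7.7, 7.5 and 9.1, against a median of 13.3 over the members.

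The common counterpart Cox7a2 had 13.04, 13.04 and 13.06 in treated and 13.03, 13.04 and 13.04 in untreated cells. Its log2 ratio of 0.01 (SE 0.08) was the smallest of the complex in size. Cox7a2l fell by 0.43 (SE 0.09, adjusted p = 0.00220). For the other isoform pairs, the liver form Cox6a1 was at -0.28 (adjusted p = 0.0463) and the muscle form Cox6a2 at -0.15 without passing the test. The Cox6a1 call was lost without replicate 1, without replicate 3 and under other settings, among them centring on the tested genes. Cox7b, Cox8a and Ndufa4, now counted as a subunit of complex IV, were at -0.15, -0.07 and -0.16 and did not pass it, and their counterparts Cox7b2, Cox8b, Cox8c and Ndufa4l2 were not measured.

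The genes that assemble complex IV were lower in 13 and higher in 4 of the 21 measured under loess, with a median of -0.38. Among all tested genes 46.1% were lower and 24.5% higher. With the ratios centred on the tested genes, 10 were lower and 6 higher, beside 36.7% and 35.2% of all tested genes. Lrpprc, which stabilizes mitochondrial messenger RNAs, had log2 ratios of -1.70, -1.61 and -2.26. Sco2, which delivers copper to the oxidase, had -1.33, -1.38 and -1.78. Both fell on all arrays by more than any complex IV subunit. Cox14 was at 0.39 (adjusted p = 0.00690, and 0.0583 without replicate 1), and Coa5 was at 0.47 on its brightest probe but at -0.31 as a mean over its probes.

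The ATP synthase consists of a catalytic F1 head and of a stalk and membrane part, Fo. Of the 5 measured F1 genes 3 fell and 1 rose, beside 46.1% and 24.5% of all tested genes, with a median of -0.46. Atp5a1, the alpha subunit, had 13.15, 12.96 and 12.54 in treated and 13.67, 13.71 and 13.58 in untreated cells. The treated values were lowest on replicate 3, and no treated value reached the untreated range. Atp5a1 fell by 0.77 (SE 0.11, adjusted p = 0.000268).

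Atp5c1, the gamma subunit that rotates within the head, fell by 0.58 on its brightest probe and by 0.35 as a mean over probes. Atp5b, the catalytic beta subunit, had 14.76, 14.73 and 14.37 in treated and 15.04, 15.11 and 15.09 in untreated cells, and fell by 0.46 (SE 0.10, adjusted p = 0.00356). The small subunit Atp5e was at 0.25 (adjusted p = 0.0237) and Atp5d at 0.05 (adjusted p = 0.632). The Atp5e call was lost without replicate 1, without replicate 3, without the normexp offset and with the scanner ratio. Under loess Atp5a1, Atp5b and Atp5c1 thus fell, while Atp5d and Atp5e did not. With median centring all 5 F1 genes lay below 0, Atp5d at -1.07 and Atp5e at -0.80.

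Among the 12 stalk and Fo genes 5 fell (41.7%) and 2 rose (16.7%), with a median of -0.15. These shares were near the 46.1% lower and 24.5% higher of all tested genes. Atp5pb, the b subunit of the peripheral stalk, had 11.99, 12.04 and 11.80 in treated and 12.56, 12.65 and 12.58 in untreated cells, and fell by 0.65 (SE 0.08, adjusted p = 0.000151). Of the 3 genes for the ring subunit c, which encode the same mature protein, Atp5g3 fell by 0.53 and Atp5g2 by 0.38, while Atp5g1 was at -0.05 (adjusted p = 0.615). Atp5md, a small subunit linked to pairing of the enzyme, had 14.17, 14 and 14.11 in treated and 13.58, 13.72 and 13.51 in untreated cells. Its log2 ratio was 0.49 (SE 0.09, adjusted p = 0.00154) under loess and -0.59 with median centring. Atp5k was at 0.33, a call lost without replicate 3 and with the scanner ratio.

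Of 4 further genes that assemble or inhibit the enzyme, 2 fell and 0 rose under loess, beside 46.1% and 24.5% of all tested genes. With the ratios centred on the tested genes, 1 was lower and 2 higher, beside 36.7% and 35.2% of all tested genes. Atpif1, the inhibitor that blocks ATP hydrolysis, had log2 ratios of -0.85, -0.52 and -0.83 and fell by 0.73 (adjusted p = 0.000151). Tmem70 fell by 0.31, a call lost without replicate 3.

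**Figure D4:**
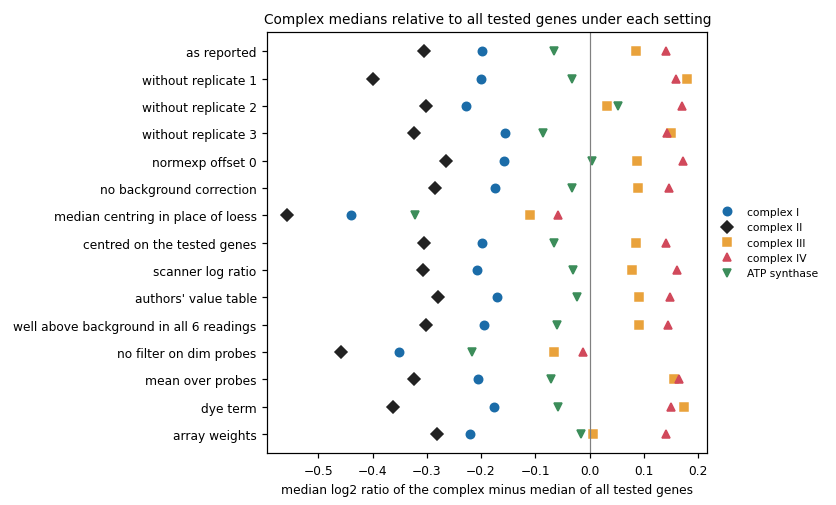
Median log2 ratio of each complex minus the median of all tested genes, as reported and under 14 alternative settings. Complexes I and II lie below the all-gene median under every setting, between -0.44 and -0.16 and between -0.56 and -0.26, while complexes III and IV and the ATP synthase cross 0.

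The standing of the complexes against all genes was compared across settings. Complex II lay between -0.56 and -0.26 relative to the median of all tested genes, and complex I between -0.44 and -0.16, so both stayed below it under all 14 alternatives. Complex IV lay between -0.06 and 0.17, and was below it only with median centring and with no filter on dim probes. Complex III ranged from -0.11 to 0.18 and the ATP synthase from -0.32 to 0.05, on both sides of it.

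The nuclear genes that copy and transcribe mitochondrial DNA, which encodes the remaining subunits, fell in 11 of 14 and rose in 0, with a median of -0.62, beside 46.1% of all tested genes lower. With the ratios centred on the tested genes, 9 were lower and 2 higher, beside 36.7% of all tested genes lower. Ssbp1, which binds single-stranded mitochondrial DNA, had log2 ratios of -1.11, -1.05 and -1.21 on its brightest probe, and a mean of -0.61 over its probes. Polrmt, the mitochondrial RNA polymerase, had -0.75, -1.02 and -1.21. Tfam, which packages mitochondrial DNA and starts its transcription, had -0.47, -0.50 and -0.62, with adjusted p = 0.000462.

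The regulators of mitochondrial biogenesis went the other way under loess: 7 of 11 rose and 1 fell, beside 24.5% and 46.1% of all tested genes. Their median was 0.50, and -0.42 with median centring. Centring on the tested genes gave 7 higher and 1 lower, beside 35.2% and 36.7% of all tested genes. Ppard, a nuclear receptor of fatty acid metabolism, had log2 ratios of 2.07, 2.00 and 1.95 and stayed above 0 with median centring, at 0.83. Myc, a growth regulator, had 0.98, 1.33 and 1.58. Nrf1, the factor that binds the NRF1 motif, was at -0.19 (adjusted p = 0.142) and Ppargc1b, a coactivator, at -0.12 (adjusted p = 0.223). Ppargc1a, its better-known relative, was not measured.

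Yy1, Esrra and Gabpa are given here because their motifs were searched. Yy1 was at 0.76, Esrra at 0.82 and Gabpa at 0.63 on its brightest probe but at 0.00 as a mean over its probes, and all were below 0 with median centring. Gabpb2, a partner of Gabpa, fell by 0.46.

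**Figure D5:**
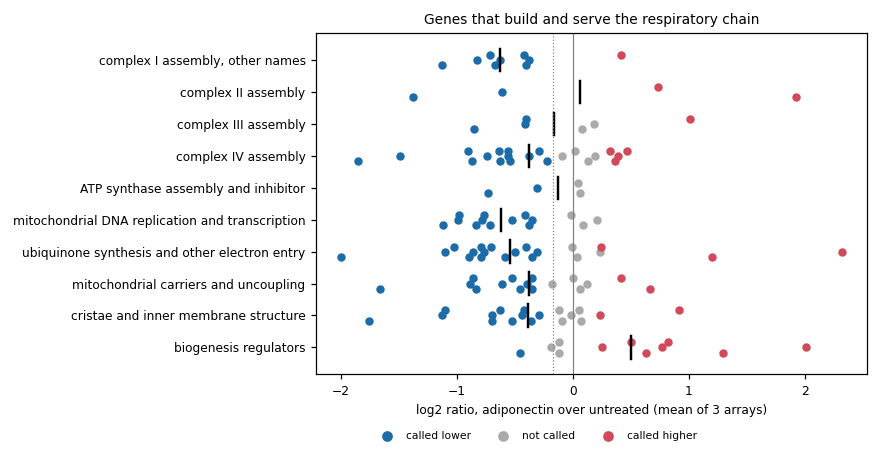
Log2 ratio of adiponectin-treated over untreated cells (mean of 3 arrays) for genes that build and serve the respiratory chain, members excluded; blue points were called lower, red higher and grey not called, black bars are list medians, the solid line is 0 and the dotted line the median of all tested genes. The median is -0.62 for mitochondrial DNA replication and transcription and 0.50 for the biogenesis regulators, where it is -0.42 with median centring.

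Ubiquinone carries electrons from complexes I and II and from other dehydrogenases to complex III. Of the 20 measured genes of its synthesis and of these other entry points, 14 fell and 3 rose, with a median of -0.54. Among all tested genes 46.1% were lower and 24.5% higher. With the ratios centred on the tested genes, 12 were lower and 4 higher, beside 36.7% and 35.2% of all tested genes. Coq2, which attaches the isoprenoid tail, had log2 ratios of -1.87, -1.96 and -2.18. Coq10a, a ubiquinone-binding protein, had -1.09, -1.03 and -1.20. Gpd2, the mitochondrial glycerol-3-phosphate dehydrogenase, had 2.35, 2.20 and 2.40, with a mean of 2.32 (SE 0.08, adjusted p = 1.68e-07), and stayed at 1.15 with median centring. Coq8a was at 1.20 on its brightest probe and at 0.68 as a mean over its probes.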

How the data were processed

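Total RNA was compared on 3 dual-colour Agilent arrays. The deposited intensities are, per the file headers, median spot and local background brightness from Feature Extraction 10.7.3.1, not normalized, and the deposited log10 ratio is Cy5 over Cy3 of the scanner's processed signals. The authors also deposited a table of log2 values; the sources used here do not say how it was made. Its columns correlated with treated over untreated ratios at r = 0.986, 0.988 and 0.986 and had medians of -0.000414, -0.00494 and -0.000642, so its direction is known and its background handling is not. The labels give the dose in µg/ml for the treatment and in mg/ml for the extraction, and the treatment's unit is used.

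Intensities were corrected with normexp (offset 50) and loess in limma 3.58.1 under R 4.3.3; control spots had weight 0 and outlier spots were left out (323, 303 and 299), and each ratio was turned to treated over untreated by the labelled dyes. Of the probes, 27235 had 1 symbol by RefSeq accession and 28446 none. A gene was represented by its brightest probe well above background in at least 3 of 6 readings. Ratios were tested against 0 with lmFit and eBayes at an adjusted p under 0.05, and each SE is limma's moderated one. Log2 intensities are those after normalization. The fit was also run on simulated data, whose outcome is not reported here and is not used as support for the calls. Alternatives were other background corrections, centrings, filters, probe means, a dye term, array weights, the scanner ratio, the authors' table and leaving out each array. Members named in the text were, in each complex, all called higher, the 4 lowest and the 2 highest, and all isoform pairs, and in each list the 2 lowest and 2 highest called genes plus Ppargc1a, Ppargc1b, Nrf1, Tfam and Atpif1. Other names were chosen after their values were seen. The members and lists were chosen with earlier results of these data known. Values of some items counted in the totals are not reported here.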

Additional observations from a re-analysis of the deposited data

How the results depend on the processing

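With median centring in place of loess, 0 genes were called higher and 0 lower in limma, and 0 members in either direction, and the members' median was -1.33. The 15 members called higher were then below 0: Atp5e at -0.80, Atp5k at -0.75, Atp5md at -0.59, Cox4i2 at -0.33, Cox5a at -0.60, Cox6b1 at -0.91, Cox6b2 at -0.11, Cox7a1 at -0.66, Cycs at -0.10, Ndufaf3 at -0.91, Ndufaf5 at -0.30, Ndufb3 at -0.70, Ndufs4 at -0.48, Ndufs8 at -0.90 and Uqcrq at -0.60. The cause was not tested. With the ratios centred on the tested genes the members' median was -0.079. Under the 13 settings other than median centring, 32 of the 46 lower and 10 of the 15 higher calls held throughout. The ratios within arrays already pair treated with untreated samples. No paired analysis was possible beyond this, because the 3 ratios form 1 group with no further replicate block to add. Slide as a block was not run, since all 3 arrays lay on 1 slide. The number of arrays limits the precision, and the unequal dye orientations reduce but do not cancel a dye effect.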

Other observations

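The carriers of the inner membrane and the pores of the outer one, which move substrates, phosphate and nucleotides for the ATP synthase, had a median log2 ratio of -0.38. Of 16 measured genes 10 fell and 2 rose under loess, beside 46.1% of all tested genes lower and 24.5% higher. With the ratios centred on the tested genes 7 were lower and 4 higher, beside 36.7% and 35.2% of all tested genes. Slc25a13, an aspartate and glutamate carrier, had log2 ratios of -1.59, -1.67 and -1.74, and Slc25a3, the phosphate carrier, had -0.82, -0.95 and -0.90. Slc25a1, the citrate carrier, was at 0.66 and Slc25a10, the dicarboxylate carrier, at 0.41 (0.68 without the normexp offset), and both were below 0 with median centring.

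Of 18 measured genes that shape cristae and the inner membrane, 11 fell and 2 rose under loess, with a median of -0.39. Among all tested genes 46.1% were lower and 24.5% higher. With the ratios centred on the tested genes, 8 were lower and 4 higher, beside 36.7% and 35.2% of all tested genes. Crls1, which makes the inner membrane lipid cardiolipin, had -1.76, -1.75 and -1.79, and Letm1, an ion exchanger, had -1.08, -0.97 and -1.34. Apool, a cristae junction protein, was at 0.91 with loess and at -0.27 with median centring. Higd1a was at 0.23 (adjusted p = 0.0423 in limma), a call lost when any 1 replicate was left out.

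Across the 91 members the log2 ratio was related to the length of the gene on the genome, at r = -0.30 (Spearman rho -0.42) with log10 of the RefSeq span. Over all 13182 tested genes it was -0.11 (rho -0.10). The points share arrays and normalization, and this is a description. The median span was 4007 bases in the members called higher, 8818 bases in those called lower and 20406 bases in all tested genes.

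Ndufb5, a membrane arm subunit of complex I, was chosen after its values were seen because its 2 measured probes differed by more than 0.5: they fell by 0.39 and by 1.03.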
